A study of Homo sapiens with 9 samples.

Results

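IDO1, KMO, KYNU and WARS1 are 4 genes of tryptophan breakdown or use, and they were picked by gene symbol, 4 of the 59609 genes in the count table. RNA sequencing was done on SUIT2, a pancreatic cancer line of human origin, in 3 groups of 3 libraries: control-treated cells, cells given human interferon beta (IFNβ, a type I interferon) at 100 U/mL for 6 h, and cells given the same dose for 24 h. No label gives a time for the control cultures or a genetic change in any group, and nothing in them tells whether the replicates of a group were grown apart, so a p-value covers the scatter among these libraries, which may be technical. The series asks which transcripts change after either exposure.

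Tryptophan has competing uses in a cell. IDO1 opens its indole ring, which starts the kynurenine route; a formamidase then frees kynurenine, KMO adds a hydroxyl group to it, KYNU cleaves the product, and later enzymes lead towards NAD. WARS1 instead attaches tryptophan to its transfer RNA for protein synthesis. IDO1 and WARS1 are textbook targets of interferons, and tryptophan loss and kynurenine made by IDO1-expressing tumour cells are known to restrain T cells.

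Libraries held 15101734 to 40384407 estimated reads, with control libraries at 15101734 to 19632741, so 1 read was worth 0.0232 to 0.0652 CPM (counts scaled to a common library size with TMM factors). Among all 16964 genes tested with edgeR's quasi-likelihood test, 53.2% of the calls at 6 h were higher. That share was 21.2% when scaled by library size alone and 88.4% in the authors' normalized table, and the median log2 fold change of all genes under the 3 scalings was -0.005, -0.145 and 0.134. At 24 h against control 49.5% were higher, against 64.1% and 96.4%, with medians of 0.005, 0.082 and 0.371, and at 24 h against 6 h 46.6%, against 76.9% and 83.3%, with medians of -0.019, 0.198 and 0.215. The interferon-response genes MX1, IFIT1, ISG15, OAS1 and IFI6 were higher in both treated groups (5 of 5 at each time). All 9 ductal epithelial markers on the list were tested, and their summed CPM ran from 4978 to 5051 in the control libraries, from 5593 to 5901 in those of 6 h and from 5526 to 5649 in those of 24 h. Since IDO1 and KMO are known from macrophages and dendritic cells, leukocyte markers were counted too: PTPRC, which marks all leukocytes, and CD3E, MS4A1, CD163 and FCGR3A had 0 counts in all 9 libraries. The 14 leukocyte markers summed to 258 to 261 CPM in the control libraries, 372 to 389 in those of 6 h and 405 to 426 in those of 24 h, with 2 of the 3 tested members called higher at 6 h and 3 of 3 at 24 h (17.5% and 24.7% of all genes). Nearly all of the sum was LYZ (226.6 ± 2.18, 258 ± 7.80 and 331 ± 12.4 CPM, SD, n = 3) and CD68 (32.9 ± 1.68, 120 ± 1.99 and 85.6 ± 1.20 CPM), whose part in the results was not tested. The 6 h call of LYZ was lost in the deposited values and under scaling by library size alone.

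The 4 genes moved in 3 ways, which the plot of levels by library shows. IDO1 and KMO went from almost no reads to a low level at 6 h and were back near the floor at 24 h. WARS1, already well expressed, rose about 5-fold at 6 h and kept a small part of that rise. KYNU did not pass the test at 6 h and was higher at 24 h.

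**Figure D1:**
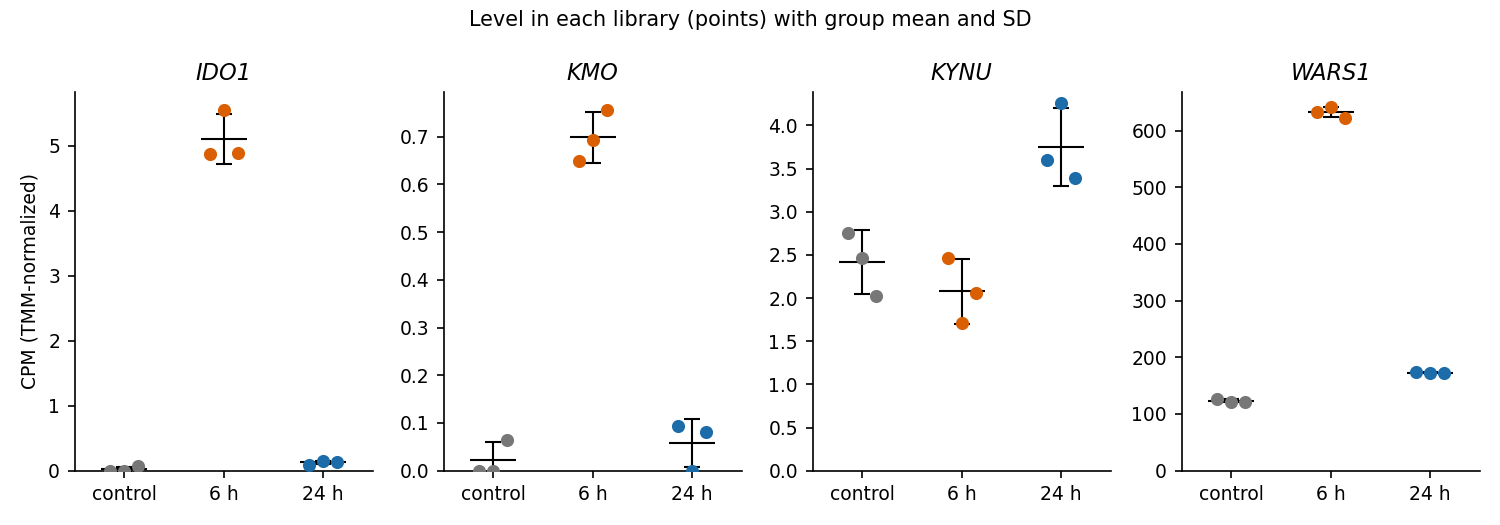
CPM (TMM-normalized) of IDO1, KMO, KYNU and WARS1 in each library (points), with the group mean (line) and SD (bars), n = 3 per group; each panel has its own linear axis from 0. IDO1, KMO and WARS1 stand highest at 6 h, and KYNU stands highest at 24 h.

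IDO1, indoleamine 2,3-dioxygenase 1, lies on the plus strand of chromosome 8, 39902275 to 39928791 (hg38). Its counts were 0, 0 and 1 in control libraries 1 to 3, 75, 120 and 168 at 6 h, and 4, 4 and 5 at 24 h. In CPM that was 0, 0 and 0.0652, then 4.87, 5.545 and 4.88, then 0.0930, 0.148 and 0.136. Every 6 h library stood far above every other library, and the 24 h libraries lay just above the single control read without overlap.

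Over the groups IDO1 had 1 control count and 363 counts at 6 h, a depth-adjusted ratio of 263.5 with an exact 95% interval of 47.0 to 10430, which covers counting error only. The adjusted p by edgeR was 5.15e-10. In RNA from a whole culture, more cells with IDO1 and more IDO1 RNA per cell cannot be told apart. From 6 h to 24 h the summed count went from 363 to 13, a 41.8-fold fall (24.1 to 79.2) with adjusted p = 8.67e-11 by edgeR. Of all 16964 genes tested, IDO1 had the lowest fitted log2 fold change between the times, at -5.33 (SE 0.25). IDO1 passed the low-count filter only through its 6 h libraries, so its place among the genes kept is partly set by that filter.

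What was left of IDO1 at 24 h is uncertain. The 13 counts against 1 in control gave a ratio of 6.31 with an interval of 0.948 to 268, and edgeR's adjusted p was 0.0432. That call was lost with DESeq2 (0.0929), without the low-count filter (0.0717), after thinning to equal depth (0.269) and without control library 1 (0.151), control library 2 (0.189), 24 h library 2 (0.0745) or 24 h library 3 (0.0769). The 24 h libraries kept 1.40% to 2.49% of the rise in mean CPM seen at 6 h.

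The other 2 enzymes that can take the same first step had almost no reads. TDO2, the liver-type tryptophan dioxygenase, had summed counts of 0 in control, 1 at 6 h and 5 at 24 h. IDO2, the neighbouring paralog of IDO1, had 0, 1 and 1. Neither passed the low-count filter. Of the 3 noncoding genes that overlap IDO1 in the deposited table, AC007991.4 reached at most 1 count in any library and AC007991.2 and AC007991.3 had 0.

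KMO, kynurenine 3-monooxygenase, an enzyme of the outer mitochondrial membrane, lies on the plus strand of chromosome 1, 241532134 to 241595643. It had 0, 0 and 1 counts in control, 10, 15 and 26 at 6 h, and 4, 0 and 3 at 24 h. The 3 libraries at 6 h (0.649, 0.693 and 0.755 CPM) were above all others, while 24 h and control libraries overlapped, with a 0 in each group.

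KMO's summed count of 51 at 6 h against 1 in control was a ratio of 37.0 (6.35 to 1490), with adjusted p = 0.000244 by edgeR. At 24 h the 7 counts against 1 gave 3.40 (0.437 to 153), and the difference did not pass (adjusted p = 0.328 by edgeR). From 6 h to 24 h KMO fell 10.9-fold (4.92 to 28.45), with adjusted p = 6.7e-05 by edgeR. OPN3, which encodes an opsin, overlaps the end of KMO on the other strand and was lower at 6 h and higher at 24 h (log2 fold change -0.34, SE 0.12, and 0.50, SE 0.10, where the 6 h call was lost with DESeq2 and limma-voom among others), so its counts did not run with those of KMO. No source used here gives the strand setting of the counting.

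KYNU, kynureninase, which cleaves kynurenine and its hydroxylated form, lies on the plus strand of chromosome 2, 142877657 to 143055834. It had 46, 49 and 31 counts in control, 38, 37 and 71 at 6 h, and 155, 115 and 125 at 24 h. In CPM the control libraries stood at 2.76, 2.47 and 2.02, the 6 h libraries at 2.47, 1.71 and 2.06, and the 24 h libraries at 3.60, 4.26 and 3.39. Control and 6 h libraries overlapped, and the 24 h libraries lay above all 6 others.

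At 6 h KYNU's log2 fold change was -0.24 (SE 0.19, adjusted p = 0.369 by edgeR), on the other side of 0 from IDO1 and KMO. At 24 h KYNU rose 1.54-fold against control, 0.62 (SE 0.17) in log2 units, with edgeR's adjusted p at 0.00566. In the deposited values with a pseudocount of 0.1 the 24 h value of KYNU was 1.04. Against 6 h it rose 1.81-fold, by 0.86 (SE 0.16), with adjusted p = 0.000305 by edgeR. Control cells carry no stated time, so time in culture and interferon cannot be told apart in any of the comparisons, a change seen at 24 h only included.

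WARS1, the cytosolic tryptophanyl-tRNA synthetase, lies on the minus strand of chromosome 14, 100333790 to 100376806. It stood at 127, 122 and 121.5 CPM in control, at 634, 641.5 and 623 CPM at 6 h, and at 174, 172 and 172.5 CPM at 24 h, from 1864 to 21438 counts per library. The 3 groups were separate, and the libraries within each differed little.

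WARS1 rose 5.13-fold at 6 h, from 123 ± 3.03 to 633 ± 9.44 CPM (SD, n = 3), 2.36 (SE 0.029) in log2 units, and edgeR's adjusted p was 3.5e-18. At 24 h, at 173 ± 0.858 CPM, it was still 1.40-fold above control, with 0.49 (SE 0.029) and adjusted p = 1.76e-09. Between the times it fell 3.66-fold, with -1.87 (SE 0.028) and adjusted p = 1.46e-16. The 24 h libraries kept 9.59% to 9.90% of the 6 h rise in mean CPM, but 17.8% to 19.1% in the deposited normalized values, where the log2 fold change at 24 h was 0.92. In the deposited normalized table the 6 h libraries of WARS1 stood at 625 ± 119.6 (SD, n = 3), a wider spread than in CPM, because each library there carries 1 multiplier that differs from the TMM factors used here.

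Promoter windows from RefSeq (GRCh38.p14), 250 bases before a transcript start and 50 from it on, were taken for KMO, KYNU and WARS1. They were searched on both strands for 2 motifs. IDO1 was left out of this search, so nothing is said here of its promoter. The interferon-stimulated response element (ISRE), bound by IRF9-containing complexes and other IRFs, was searched as GAAA, any 2 bases and GAAA, and the gamma-activated site (GAS), another interferon-linked motif, as TTCNNNGAA, which reads the same on both strands. Of all 35116 windows 3.57% held the ISRE pattern and 7.66% the GAS pattern. WARS1 has 2 windows. The one at the inner start (100375347) held 1 ISRE and 1 GAS match, and the one at the outer start (100376327) held neither. KYNU held 2 GAS matches and no ISRE, and KMO held neither motif. The KMO window, 241532128 to 241532427, was set on a RefSeq start at 241532378. The deposited start of KMO, 241532134, lies near the upstream edge of that window, so the stretch before it was mostly not searched. The matches are printed because they tell the WARS1 starts and the 3 genes apart, with the match in capitals, 10 bases on each side and the strand of the gene:
WARS1 ISRE, chr14:100375383-100375412, minus strand, first base of the match 55 bases before the start: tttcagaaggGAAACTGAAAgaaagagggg
WARS1 GAS, chr14:100375471-100375499, minus strand, 142 bases before the start: gctcaagtgtTTCTGAGAAtctgggtgat
KYNU GAS, chr2:142877620-142877648, plus strand, 34 bases before the start: gtctgagcagTTCTTTGAAtttctcaccc
KYNU GAS, chr2:142877659-142877687, plus strand, from 5 bases past the start: cctgtacattTTCAAGGAAttcttgagag

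A match is a run of letters and not a measured binding site, and a window without one says only that these letters are not in it. The counts are per gene, so they do not tell which WARS1 start was used.

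**Figure D2:**
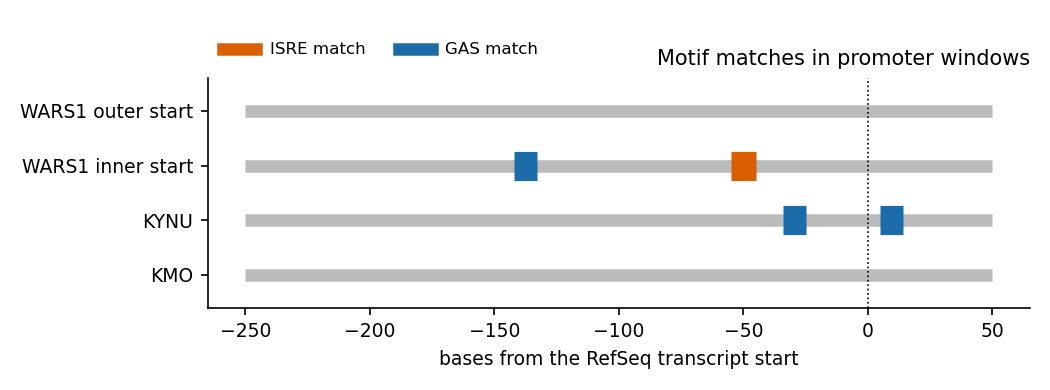
Matches to the ISRE and GAS patterns (coloured blocks) in the RefSeq promoter windows of KMO, KYNU and both WARS1 starts; the x axis is the distance in bases from the transcript start (dotted line), and each grey bar is a window of 300 bases. The inner WARS1 start holds 1 match of each kind, KYNU holds 2 GAS matches, and the others hold none.

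By edgeR's test 3 of the 4 genes were higher at 6 h, where 32.9% of all tested genes passed and 17.5% were higher. At 24 h against control 3 of 4 were higher, where 50% of all genes passed and 24.7% were higher, with IDO1 among them on the uncertain call above. Between 6 h and 24 h 3 of 4 were lower and KYNU was higher, where 57.2% of all genes passed, 30.6% lower and 26.6% higher. With so few genes chosen by name, these shares describe the 4 and nothing wider. Across the 9 libraries the log2 levels of IDO1, KMO and WARS1 ran together (Pearson r of 0.979 to 0.991), and those of KYNU ran against them (-0.48 to -0.615), a description that rests mostly on the means of 3 groups.

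Set on 1 scale per length (CPM per kb of the median coding transcript in GENCODE 29), the order of the 4 changed with time. In control WARS1 was highest at 49.2, KYNU followed at 1.44, and IDO1 and KMO, with 1 read each, could not be told apart. At 6 h WARS1 stood at 252, IDO1 at 2.68, KYNU at 1.24 and KMO at 0.143 CPM per kb. At 24 h WARS1 stood at 68.9 and KYNU at 2.24, while IDO1 at 0.0660 and KMO at 0.0119 rested on 13 and 7 reads. The place of KYNU rests on the length taken, since its annotated coding transcripts run from 0.776 to 15.3 kb. By these median lengths WARS1 stood above IDO1, KMO and KYNU in each group.

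Most other genes of the kynurenine route did not pass the test at 6 h. Of 14 listed genes, IDO1, KMO and KYNU included, 10 were tested. At 6 h 3 were higher and 0 lower (17.5% and 15.4% of all genes), with a median log2 fold change of 0.05 against -0.005 over all genes. At 24 h 4 were higher and 0 lower (24.7% and 25.3% of all genes), with a median of 0.347 against 0.005. Between the times 2 were higher and 4 lower (26.6% and 30.6% of all genes), with a median of -0.018 against -0.019. The 4 untested genes were TDO2, IDO2, HAAO and QPRT. HAAO, which follows KYNU on the way to quinolinate, had 5, 6 and 20 counts over the groups, and QPRT, which turns quinolinate into an NAD precursor, had 18, 19 and 36.

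Among the other tested enzymes, the transaminases that divert kynurenine to kynurenate split by time. KYAT3 rose at 6 h, from 13.6 ± 0.299 to 19.15 ± 0.279 CPM (log2 fold change 0.49, SE 0.067, adjusted p = 2.86e-05 by edgeR) and was at 14.15 ± 0.892 at 24 h. KYAT1 did not pass at 6 h and rose at 24 h, from 3.63 ± 0.676 to 6.81 ± 0.506 CPM (0.90, SE 0.13, adjusted p = 4.27e-05), as did KYNU. AADAT, another such transaminase, did not pass at either time, with -0.15 (SE 0.16) and -0.38 (SE 0.16). GOT2, the abundant mitochondrial aspartate transaminase, did not pass against control at either time. Its small fall between the times (-0.10, SE 0.029) turned with the scaling, to 0.12 and called with library size only.

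AFMID, the formamidase between IDO1 and KMO, stood at -0.28 (SE 0.11, adjusted p = 0.0572 by edgeR) at 6 h and -0.09 (SE 0.10) at 24 h. NADSYN1, the last enzyme on the way to NAD, was slightly higher at 24 h (0.11, SE 0.036, adjusted p = 0.0247), a call lost with DESeq2, after thinning and without control library 1, control library 3, 24 h library 2 or 24 h library 3. ACMSD, which draws the route away from quinolinate, did not pass (0.07, SE 0.43, and 0.59, SE 0.38).

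**Figure D3:**
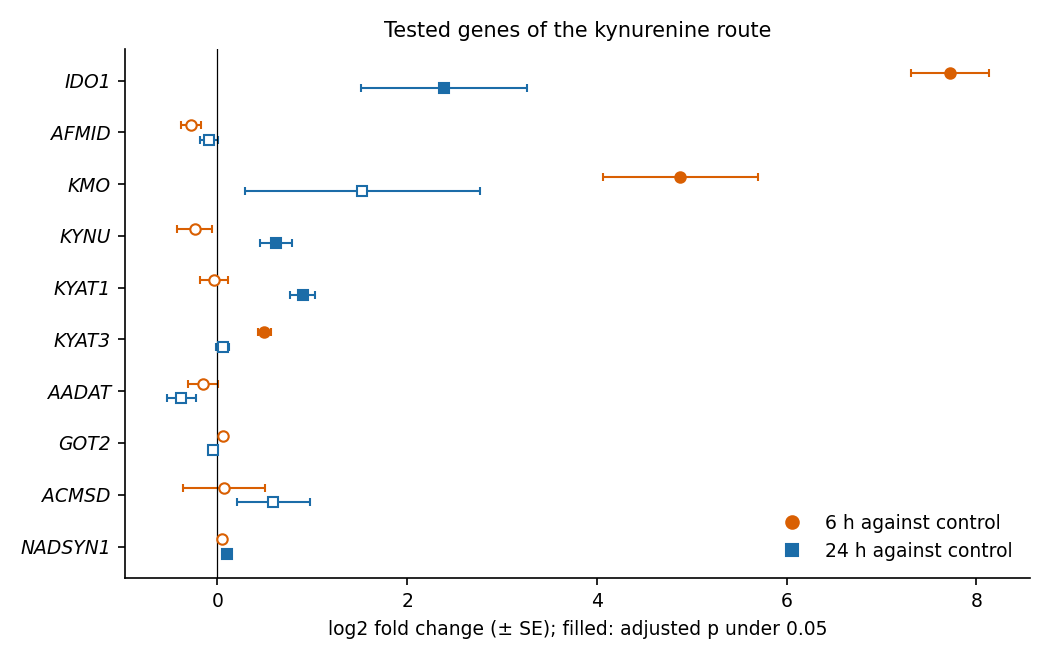
Fitted log2 fold change against control (x axis, ± SE) of the 10 tested genes of the kynurenine route at 6 h (circles) and 24 h (squares), n = 3 per group; filled symbols passed at an adjusted p under 0.05. IDO1 and KMO lie far right at 6 h, where their fitted values rest on 1 control read each, and KYNU and KYAT1 pass at 24 h only.

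Other fates of tryptophan were covered by few reads. Of 9 genes of the serotonin, tryptamine and indole pyruvate branches, only MAOA and MAOB, the monoamine oxidases, were tested. MAOA stood at 4.76 ± 0.621 CPM in control, 3.46 ± 0.376 at 6 h and 8.37 ± 0.190 at 24 h, and MAOB fell from 47.8 ± 0.470 to 21.8 ± 1.11 CPM at 24 h (log2 fold change -1.14, SE 0.053, adjusted p = 9.22e-11 by edgeR). IL4I1, a secreted oxidase that also consumes tryptophan, did not pass the low-count filter. It had 1 control count, 30 at 6 h and 15 at 24 h, ratios of 21.8 (3.62 to 888) and 7.28 (1.12 to 307), so its reads too were most frequent at 6 h.

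SLC7A5, the main carrier of large neutral amino acids, fell at both times. Of 7 tested genes of amino acid carriers that serve tryptophan or its exchange 0 were higher and 3 lower at 6 h, and 2 were higher and 4 lower at 24 h, with medians of -0.189 and -0.563 against -0.005 and 0.005 over all genes, of which 15.4% were lower at 6 h, and 24.7% higher and 25.3% lower at 24 h. SLC7A5 went from 1168 ± 10.3 to 923 ± 45.0 and 643 ± 19.1 CPM, with log2 fold changes of -0.34 (SE 0.033) and -0.86 (SE 0.033). Its partner SLC3A2 stood at -0.09 (SE 0.036, not passed) and -0.69 (SE 0.036), and SLC36A4, another carrier of tryptophan, at -0.14 (SE 0.079, not passed) and -0.56 (SE 0.078). SLC1A5, the glutamine carrier, was at -0.10 (SE 0.033) and 0.12 (SE 0.032). In the deposited normalized values, whose scale shifts all genes up, the falls of SLC3A2 and SLC36A4 at 24 h and of SLC7A5 at 6 h no longer passed, and SLC1A5 at 6 h turned to 0.065, not passed.

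WARS1 was set beside the 19 other cytosolic aminoacyl-tRNA synthetase genes, all of them tested. At 6 h 5 were higher and 0 lower (17.5% and 15.4% of all genes), with a median of 0.036 and a range of -0.08 to 0.33, the highest being KARS1, the lysine enzyme. At 24 h 4 were higher and 10 lower (24.7% and 25.3% of all genes), with a median of -0.097 and a range of -0.23 to 0.29. WARS1 lay outside both ranges, at 2.36 and 0.49. Changes as small as those of the others move with the scaling: KARS1 at 24 h, at -0.02 and not passed, was 0.42 in the deposited values. WARS2, the mitochondrial tryptophan enzyme, stood at -0.15 (SE 0.064) and -0.08 (SE 0.061) and did not pass. Within each library, where scaling plays no part, WARS1 took 4.11% to 4.31% of the reads on all 20 cytosolic synthetase genes in the control libraries, 17.3% to 17.9% in those of 6 h and 5.88% to 5.97% in those of 24 h. Reads on WARS1 per read on WARS2 were 5.755 to 6.70, 33.65 to 36.7 and 8.88 to 9.60. Of the 4 genes that overlap WARS1, the pseudogene AL157871.3 had 3 to 21 counts. WDR25, a gene on the other strand at the 5′ end of WARS1, had 118 to 414 counts. WDR25 rose at 6 h (0.67, SE 0.091) and stood at 0.008 (SE 0.091, not passed) at 24 h. Between the times it fell (-0.66, SE 0.082), as WARS1 did, a call lost in the deposited values.

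**Figure D4:**
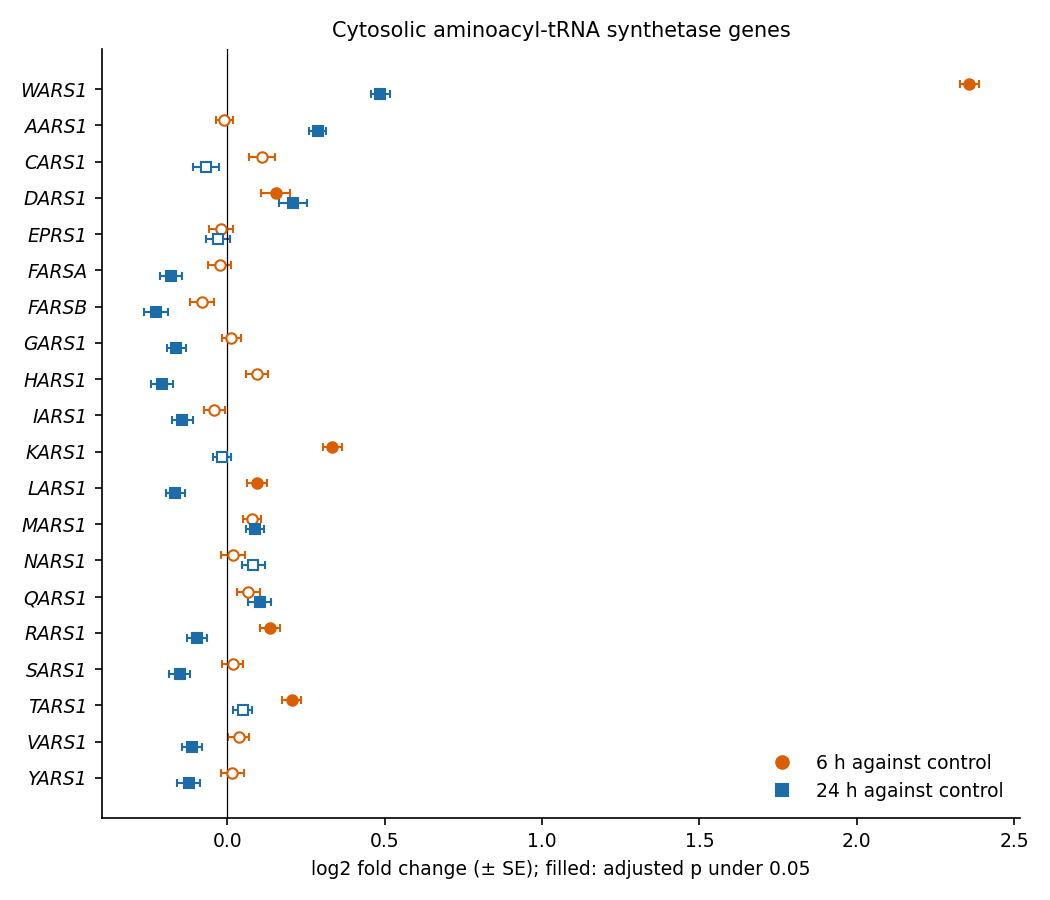
Log2 fold change against control (x axis, ± SE) of WARS1 and the 19 other cytosolic aminoacyl-tRNA synthetase genes at 6 h (circles) and 24 h (squares), n = 3 per group; filled symbols passed at an adjusted p under 0.05. WARS1 stands at 2.36 at 6 h, and the others lie between -0.08 and 0.33.

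Low tryptophan is known to be sensed by the kinase GCN2 (EIF2AK4), which acts through ATF4, and kynurenine is known to bind the aryl hydrocarbon receptor. Of 14 genes of the GCN2 and ATF4 list 4 were higher and 5 lower at 6 h, and 6 were higher and 2 lower at 24 h, with medians of -0.011 and 0.206 against -0.005 and 0.005 over all genes. Over all genes 17.5% were higher and 15.4% lower at 6 h, and 24.7% and 25.3% at 24 h. EIF2AK4 stood at -0.20 (SE 0.050) and -0.11 (SE 0.048, not passed), and PHGDH, an enzyme of serine synthesis and a known ATF4 target, at -0.18 (SE 0.050) and 0.79 (SE 0.045). ATF4 stood at 0.03 (SE 0.032, not passed) and -0.12 (SE 0.032), and its sign turned with the scaling. The 6 h value was -0.11 and called with library size only, and the 24 h value was 0.31 and not called in the deposited values. Of 7 tested receptor genes and targets 2 were higher and 2 lower at 6 h, and 2 were higher and 1 lower at 24 h, and 7 genes are too few to set apart from those shares. AHR itself went from 53.2 ± 0.767 to 42.6 ± 4.35 and 89.2 ± 3.42 CPM, with -0.30 (SE 0.060) and 0.75 (SE 0.055). Its partner ARNT fell at 6 h, with -0.39 (SE 0.054), and did not pass at 24 h, with -0.08 (SE 0.051). In the deposited values the 6 h calls of EIF2AK4, PHGDH, AHR and ARNT were lost, and that of PHGDH was also lost without control library 3 (adjusted p = 0.0699 by edgeR) or 6 h library 1 (0.0521).

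Factors known to act on IDO1, mostly transcription factors, were set beside the members. Of 8 tested genes on that list 6 were higher and 0 lower at 6 h (17.5% and 15.4% of all genes). At 24 h 4 were higher and 4 lower (24.7% and 25.3% of all genes). IRF1, STAT2 and IRF9, given here, were higher at both times. IRF1 rose from 14.9 ± 0.889 to 113 ± 1.61 CPM at 6 h and stood at 24.5 ± 0.729 at 24 h, with log2 fold changes of 2.93 (SE 0.047) and 0.73 (SE 0.054). STAT2 stood at 3.96 (SE 0.060) and 2.07 (SE 0.063), and IRF9, its partner, at 2.99 (SE 0.065) and 2.40 (SE 0.066). The 24 h libraries kept 8.93% to 10.3% of the 6 h rise of IRF1, 21.0% to 23.4% of that of STAT2 and 61.5% to 62.2% of that of IRF9, beside 1.40% to 2.49% for IDO1 and 9.59% to 9.90% for WARS1. These shares move with the scaling, and in the deposited values they were 14.7% to 17.0% for IRF1, 1.84% to 3.06% for IDO1 and 17.8% to 19.1% for WARS1. IRF8, another factor on that list, had 0 counts in all 9 libraries.

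**Figure D5:**
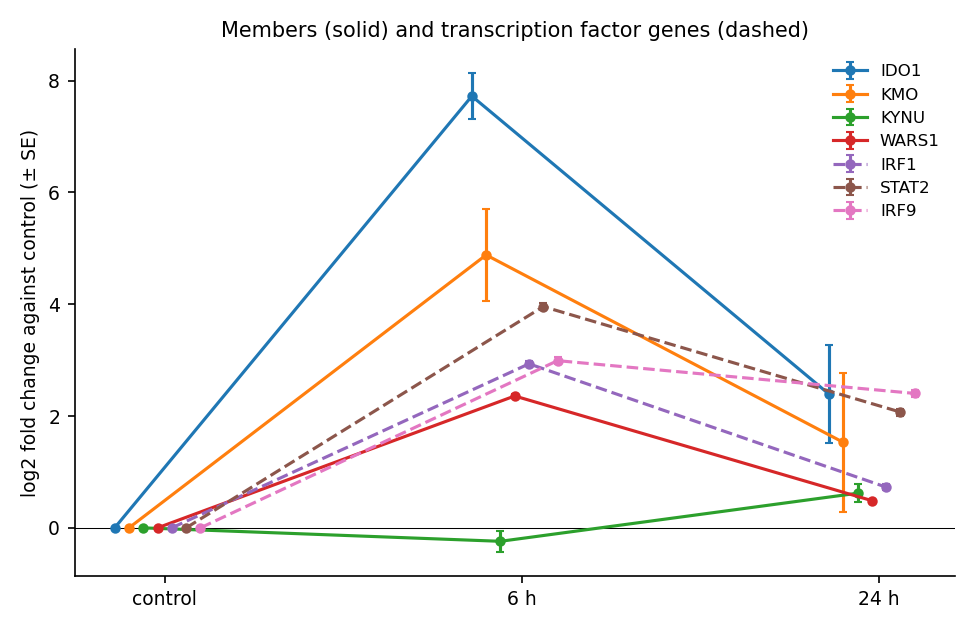
Fitted log2 fold change against control (y axis, ± SE) at 6 h and 24 h for the 4 members (solid) and for IRF1, STAT2 and IRF9 (dashed), n = 3 per group; control is 0 by construction, points are shifted sideways for legibility and the x axis is not to scale in time. All but KYNU stand lower at 24 h than at 6 h, STAT2 going from 3.96 to 2.07 and IRF9 from 2.99 to 2.40. KYNU alone is below 0 at 6 h.

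The genes whose levels over the 9 libraries ran most closely with each member's were named by Pearson r on log2(CPM + 0.5), which ignores the size of a change. They were sought among 11840 or 11841 genes with at least 5 CPM in a group. For WARS1 they were IRF2 (a factor of the interferon-response family), OPTN (an autophagy receptor), MYD88 (an adaptor of innate sensing), NUB1 and PATL1, with r of 0.9987 to 0.9995. IRF2 matched WARS1 in size too, at 2.35 and 0.50 on the log2 scale. For IDO1 they were OGFR, SORD, HIRA, BCL2L13 and BAK1 (0.9981 to 0.9991). For KMO they were INTS12, DYNLT1, LMO2, PMAIP1 and CASP8 (0.9917 to 0.9932). These genes did not match IDO1 or KMO in size. At 6 h every gene named for IDO1 had a far smaller log2 fold change than IDO1. All those named for KMO also had smaller ones than KMO, with LMO2 nearest and the others far smaller. The fitted 6 h values of IDO1 and KMO rest on 1 control read each. The genes named for KYNU were ZBED5, PDXDC1, FBXO33, CCNDBP1 and ACVR2A. Their r was lower (0.9636 to 0.9754), and their log2 fold changes at 24 h were 0.21 to 0.51. An r above 0.95 was reached by 364 genes for WARS1, 353 for IDO1, 301 for KMO and 22 for KYNU.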

How the data were processed

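The authors deposited estimated counts per gene, which need not be whole, and a TMM-normalized signal table with 0.0001 added to each count. The submitters' processing notes name the tools STAR 2.7.8a and Partek and the build hg38. Annotation release, counting method and strand setting: not stated in any source used. Groups and replicate numbers came from sample titles. The design assumed counts that might need rounding, and the edgeR fits used the estimated counts after rounding each to the nearest whole number.

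1 edgeR fit held all 9 libraries (6 residual degrees of freedom) with TMM scaling (R 4.3.3, edgeR 4.0.16, limma 3.58.1). Its quasi-likelihood test gave every p except those named with another method, setting or left-out library. A filter of minimum count 10 and minimum total 15 came first, with Benjamini-Hochberg adjustment over 16964 genes and 0.05 as threshold. IDO1 and KMO passed that filter only through their 6 h libraries. The SE is the size of the log2 fold change over the square root of F; for IDO1 and KMO it can understate the error. A gene with 3 or fewer counts over a group gets its summed counts as a ratio, with the exact Clopper-Pearson interval. Coordinates are as deposited; for all 4 members the start or the end differs from that in GENCODE 29, most for IDO1 and KYNU. Alternatives were DESeq2 1.42.0, limma-voom, other scalings, filters and thresholds, 2 groups per fit, a replicate block, thinning to 15101664 reads, each library left out, and limma on log2 of the deposited values with a pseudocount of 1 or 0.1.

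Members and 12 gene lists (144 genes, all in the table) were chosen with earlier results of these data known. Named genes were the members, tested genes of the kynurenine route, up to 4 called genes per other list by mean CPM, some set regulators and carriers, the 5 genes most like each member, and overlapping genes; not all are named, and 1 is not reported here. Genes outside this rule that are named with few counts (IL4I1, HAAO, QPRT, IRF8 and leukocyte markers) were added after their values were seen. Of stromal and acinar markers, 4 of 16 were tested, with 1 higher and 0 lower at 6 h and at 24 h. Their sums were 4.56 to 5.74, 7.58 to 8.76 and 6.43 to 6.90 CPM. Of 17 mitochondrial synthetases, 2 were higher and 3 lower at 6 h, and 5 and 4 at 24 h. Beside both lists, 17.5% of all genes were higher and 15.4% lower at 6 h, and 24.7% and 25.3% at 24 h.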

Additional observations from a re-analysis of the deposited data

Results flagged for a closer look

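The effects at 24 h and 6 h differed by edgeR's test of 24 h against 6 h for all 4 members and for 3 other genes of the kynurenine route (n = 3 per group). As the log2 effect at 24 h minus that at 6 h, the difference was -5.33 for IDO1, -3.35 for KMO, -1.87 for WARS1 and -0.44 for KYAT3. It was 0.86 for KYNU and 0.93 for KYAT1. For GOT2 it was -0.10, a sign that the scaling turned. Across all genes tested 57.2% passed in this comparison. Groups of 3 libraries are too small for a check of single libraries that stand apart.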

How the results depend on the processing

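KYNU and WARS1 kept direction and call, or lack of one, in all 21 alternatives in each comparison, and so did IDO1 at 6 h and between the times. KMO did so in each alternative that tested it; it was not tested at a minimum count of 50 or after thinning, nor, against control at 24 h, with 2 groups per fit. IDO1 was not tested at 24 h with 2 groups per fit. The fitted values of IDO1 and KMO at 6 h ran from 7.15 to 10.10 and from 4.31 to 7.26 with single libraries left out, highest without control library 3, which holds their single control reads. In the deposited values with a pseudocount of 1 they were 2.55 and 0.73. IDO1 at 24 h against control (2.39) was no longer called at a threshold of 0.01 (2.39, adjusted p = 0.0432), with DESeq2 (2.56, adjusted p = 0.0929), without the filter (2.41), after thinning (1.60) or in the deposited values with a pseudocount of 1 (0.17, adjusted p = 0.33), and ran from 1.82 to 4.76 with single libraries left out.

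Of the kynurenine route, genes higher at 24 h numbered 4, and 2 at a threshold of 0.01, with DESeq2 and after thinning (2 to 4 with single libraries left out). Genes lower at 6 h numbered 0, but 2 with library size only, 1 at a minimum count of 50 and 0 to 1 with libraries left out. Genes lower at 24 h numbered 0, but 1 with 2 groups per fit and 0 to 1 with libraries left out. Between the times 2 were higher, but 5 with library size only, and 4 were lower, but 2 in the deposited values with either pseudocount. The cause was not tested.

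For 47 other named genes, 2770 of 2954 values kept a call in the same direction or stayed without a call, where direction was not compared. A call was lost in 105 and gained in 63, and 16 turned sign with a call in either fit. The share of its 6 h rise that WARS1 kept at 24 h, 9.71%, was 18.6% in the deposited values and 13.1% when scaled by library size, 2 alternatives chosen after seeing the data. With library size only GOT2 turned to -0.0839 at 6 h and 0.12 between the times, and ATF4 to -0.11 and 0.068. In the deposited values with a pseudocount of 1 and 0.1, SLC1A5 turned to 0.065 and 0.065 at 6 h, and at 24 h GOT2 to 0.395 and 0.397, KARS1 to 0.42 and 0.422 and ATF4 to 0.312 and 0.314. Between the times GOT2 turned to 0.174 and 0.175 and ATF4 to 0.122 and 0.123.

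Over all genes, 2968 were higher and 2608 lower at 6 h, but 1669 and 6192 when scaled by library size alone, 1615 and 211 in the deposited values with a pseudocount of 1, and 1646 lower at 0.01. At 24 h 4191 and 4284 became 8575 and 321 in the deposited values, and between the times 4520 and 5184 became 8229 and 2475 with library size only and 975 lower in the deposited values. With a pseudocount of 0.1 these deposited counts were 1621 and 233, 8398 and 319, and 941. With library size only the ratios at 6 h were 239 for IDO1 and 33.6 for KMO.

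No pairing by replicate number was seen: deviations of same-numbered libraries correlated at -0.078 to 0.032, and 1 of 9 libraries correlated best with its own number. With 3 libraries per group, such a check can miss a weak shared effect. With a replicate block 5149 genes passed at 6 h, 8133 at 24 h and 9393 between the times, against 5576, 8475 and 9704, and no call of the 4 members changed. With 1 control count each, depth limits what can be said of IDO1 and KMO against control.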
